A study of Mus musculus with 18 samples.

Results

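The levels of 10 genes of the inflammasome and the interleukin-1 (IL-1) family were followed through 18 mouse livers. They were taken by symbol from the table of raw counts, and all 10 were found among its 55487 genes. Livers came from male C57BL/6J mice, bought at 7 weeks of age, that had received adeno-associated virus 1 week before 16 weeks of diet. CON-GFP mice (n = 6) received virus carrying GFP and ate the purified control diet. FPC-GFP mice (n = 6) received the same GFP virus and ate the FPC diet, which is high in fat with added fructose, palmitate and cholesterol, and drank sugar water. FPC-LIPA mice (n = 6) ate the FPC diet and received virus carrying human LIPA, the gene of lysosomal acid lipase (LAL). All 3 groups therefore carried a virus, and expression from it was driven by the hepatocyte promoter of thyroxine-binding globulin. No library of LIPA mice on the control diet was used here, so an effect of LIPA could be read on the FPC diet alone. RNA was from whole liver, and a difference in a gene of immune cells cannot be told apart as more cells or as more RNA in each cell.

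Inflammasomes are protein platforms that assemble when a sensor detects a microbial or damage signal in the cytosol. Nlrp3, Nlrc4 and Aim2 encode sensors, Pycard encodes ASC, the adaptor that links a sensor to the enzyme, and Casp1 encodes the protease that matures IL-1β and IL-18. Casp4 (the mouse gene of caspase-11) encodes a protease that detects lipopolysaccharide in the cytosol, and Gsdmd encodes gasdermin D, the protein that forms pores once it is cleaved. Il1b and Il18 encode the cytokines and Il1rn encodes the antagonist that occupies the IL-1 receptor without signalling. Priming, by which signals through NF-κB raise the mRNA of Nlrp3 and Il1b, is a step apart from assembly. Counts of mRNA bear on the first step and hold no measure of cleavage, assembly or secretion. In liver, Kupffer cells and recruited macrophages are known sources of IL-1β, and hepatocytes can be targets of it.

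Of the genes, 5 passed both the fold change and the adjusted p limits in one of the main comparisons, Nlrp3 and Il1b with the diet, where 7.2% of all genes tested passed, and Pycard, Casp1 and Casp4 with LIPA, where 11.4% passed. The 250 bases before their RefSeq start sites (GRCm38.p6) are shown because these are the genes called. Each runs 5′ to 3′ on the strand of the gene, and capitals mark matches to the motifs searched on both strands. The windows lie at chr7:127993868-127994117 (minus strand) for Pycard, chr9:5298267-5298516 (plus) for Casp1, chr9:5308599-5308848 (plus) for Casp4, chr11:59541319-59541568 (plus) for Nlrp3 and chr2:129371140-129371389 (minus) for Il1b.
Pycard: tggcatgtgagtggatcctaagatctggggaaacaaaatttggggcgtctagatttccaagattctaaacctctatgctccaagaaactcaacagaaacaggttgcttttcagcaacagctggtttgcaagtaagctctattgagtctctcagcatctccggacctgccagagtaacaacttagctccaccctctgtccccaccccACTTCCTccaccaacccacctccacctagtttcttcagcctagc
Casp1: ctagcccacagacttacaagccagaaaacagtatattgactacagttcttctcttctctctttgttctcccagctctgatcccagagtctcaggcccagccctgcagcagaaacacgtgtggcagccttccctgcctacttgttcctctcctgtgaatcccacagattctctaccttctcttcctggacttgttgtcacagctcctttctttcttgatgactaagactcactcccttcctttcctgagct
Casp4: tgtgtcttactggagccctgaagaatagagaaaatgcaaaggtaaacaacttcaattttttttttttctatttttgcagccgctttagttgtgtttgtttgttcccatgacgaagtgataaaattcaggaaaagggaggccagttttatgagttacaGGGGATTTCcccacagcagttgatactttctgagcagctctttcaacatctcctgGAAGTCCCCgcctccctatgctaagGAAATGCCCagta
Nlrp3: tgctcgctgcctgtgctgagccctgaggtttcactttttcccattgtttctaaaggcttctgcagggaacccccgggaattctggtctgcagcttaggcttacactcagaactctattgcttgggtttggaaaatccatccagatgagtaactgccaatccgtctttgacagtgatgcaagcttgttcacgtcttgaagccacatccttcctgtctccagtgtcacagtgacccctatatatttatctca
Il1b: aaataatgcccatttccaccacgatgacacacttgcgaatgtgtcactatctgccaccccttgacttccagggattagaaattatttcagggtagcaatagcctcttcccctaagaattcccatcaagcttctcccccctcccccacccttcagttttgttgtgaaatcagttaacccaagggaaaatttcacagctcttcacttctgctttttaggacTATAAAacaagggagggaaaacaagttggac

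Promoter windows were found for 9 of the 10 genes (13 windows of 300 bases, from 250 before to 50 after each start), and Gsdmd had none. The motifs were searched in all 32851 mouse windows of that length. AGGAAGT, a core bound by PU.1 and other ETS factors, stood in 9.35% of them. GGGNNNTTC, a short form of the NF-κB site, stood in 14.0%. The AP-1 site TGANTCA stood in 7.81%. GAAANNGAA, part of the interferon-stimulated response element, stood in 8.56%. TTCNNNGAA, the STAT site, stood in 8.3%. The TATA box TATAAA stood in 13.6%. The Casp4 window held 3 matches to the NF-κB form, at -93, -38 and -13 from the start. The Pycard window held the ETS core at -44 on the opposite strand, and the Il1b window held the TATA box at -31. The Casp1 and Nlrp3 windows held none of the motifs. Among the windows not printed, the ETS core stood in those of Aim2 (-112) and Nlrc4 (-106 and -10), and the NF-κB form in those of Aim2 (-154), Nlrc4 (-26), Il18 (38) and Il1rn (-4 in its first window). These matches are letters in a window and were not measured as binding.

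Total counts per library lay between 16632146 and 37739301. Levels between genes were compared as counts per M counts (CPM) per kilobase of exon, with every annotated exon of a gene joined, so a gene with long minor transcripts is understated. On this scale and over all 18 livers Gsdmd (12.1 ± 2.06, SD) and Il18 (11.0 ± 4.83) stood highest, and Nlrp3 (0.241 ± 0.130) and Nlrc4 (0.123 ± 0.0629) lowest. Il1b, Casp1, Pycard, Casp4, Il1rn and Aim2 lay between, from 3.35 ± 3.67 down to 0.465 ± 0.241. The order changed with the group. Gsdmd (12.0 ± 1.95) and Il18 (12.6 ± 2.6) lay within each other's spread in CON-GFP and were apart in FPC-GFP (12.2 ± 1.59 and 6.92 ± 1.71). Casp1 stood above Il1b in CON-GFP (1.47 ± 0.413 and 1.02 ± 0.52) and below it in FPC-GFP, both times within their spread. Il1rn (0.719 ± 0.134) was above Casp4 (0.511 ± 0.19) and Pycard (0.488 ± 0.167) in FPC-GFP and below both in FPC-LIPA (0.904 ± 0.432, 1.89 ± 0.952 and 2.08 ± 0.767). Nlrp3 rested on as few as 2 counts in a library and Nlrc4 on as few as 5, so their values carry the most counting error. All 10 passed the filter on low counts in every comparison. Hepatocyte markers (Alb, Apoa1, Ttr, Serpina1a, Hnf4a and Tat) summed to between 44637 and 91847 CPM in each library, and none was at 0.

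**Figure D1:**
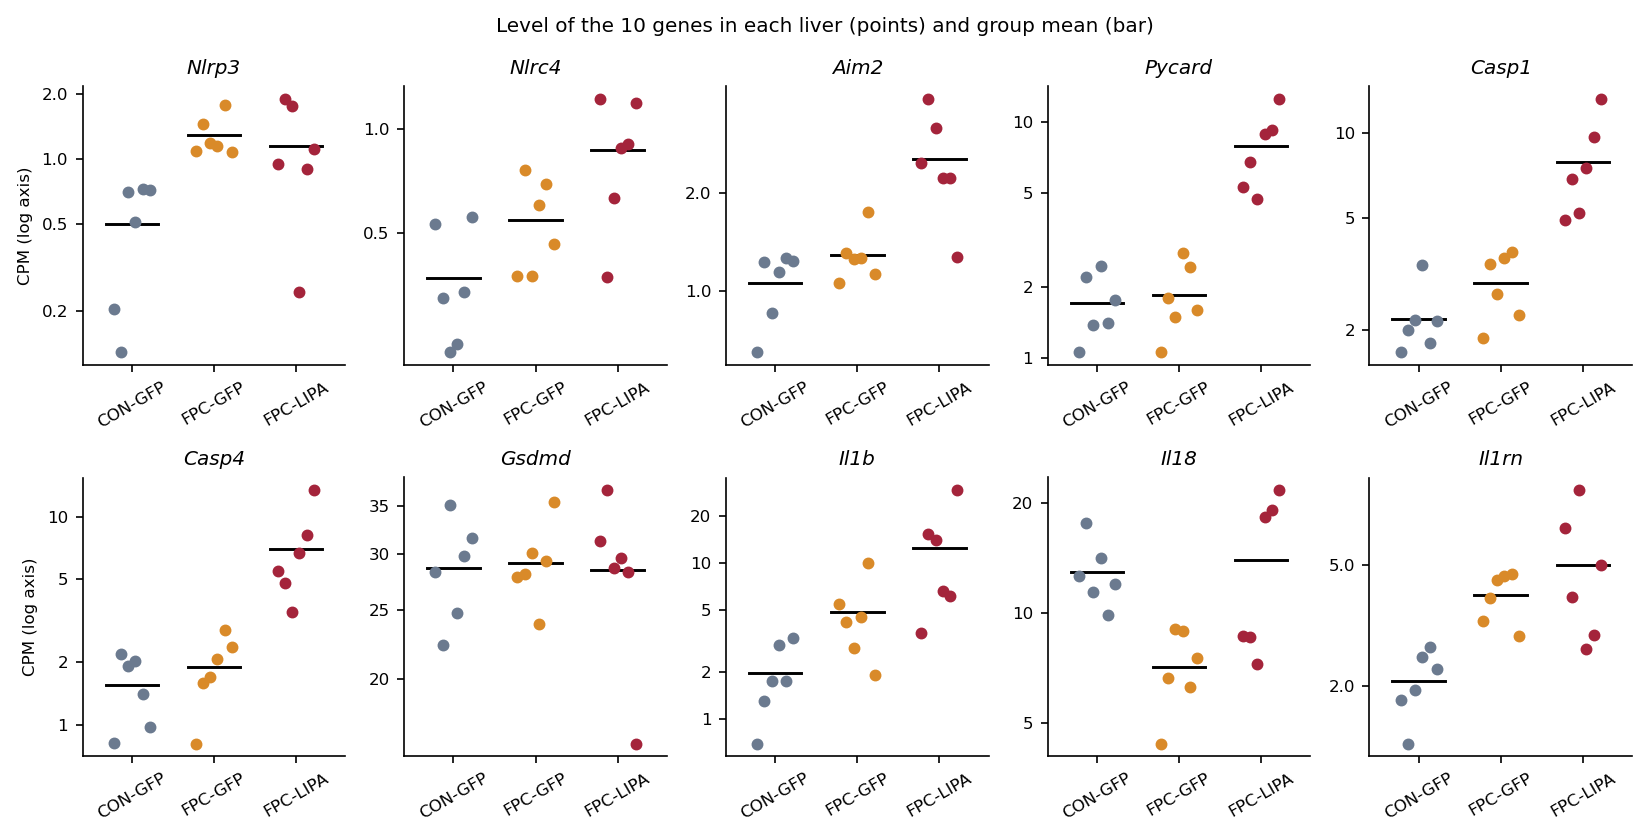
Levels of the 10 genes in CPM (log axis, scaled separately in each panel) in the 6 livers of each group, with the group mean as a bar. Nlrp3 and Il1rn in FPC-GFP lay above all CON-GFP livers and Il18 below them, while Pycard, Casp1 and Casp4 in FPC-LIPA lay above all FPC-GFP livers, and Gsdmd overlapped throughout.

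FPC-GFP was compared with CON-GFP to see which of the genes the diet moved. Nlrp3 and Il1b rose, so 2 of the 10 genes were called (2-fold or more, adjusted p under 0.05), where 7.2% of the 14307 genes tested were called. Il1rn was higher and Il18 lower with adjusted p under 0.05 but under 2-fold, and the adaptor, both caspases and Gsdmd did not pass. With the p limit alone 4 of 10 passed, beside 23.8% of all genes. The median log2 fold change was 0.35 over the 10 genes and 0.01 over all genes tested. Tests here and below are edgeR's quasi-likelihood test with Benjamini-Hochberg adjustment over all genes tested, and errors of log2 fold changes are SE.

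Nlrp3 (ENSMUSG00000032691, GRCm38 chromosome 11, 59541568 to 59566956), the sensor, ran from 0.129 through a median of 0.611 to 0.728 CPM in CON-GFP. In FPC-GFP it ran from 1.08 through 1.17 to 1.77 CPM. The lowest FPC-GFP liver stood above the highest CON-GFP liver. Its mean rose from 0.50 ± 0.272 to 1.29 ± 0.275 CPM (SD, n = 6 each), which gave a log2 difference of 1.30 ± 0.34 (adjusted p = 0.0128, edgeR). The call was lost with all 18 livers in 1 fit (adjusted p = 0.0559) and, at a log2 fold change of 0.98, in the libraries with sample sheet numbers 55 to 68. Those numbers leave out CON-GFP 1, CON-GFP 2 and FPC-GFP 20 here, and FPC-LIPA 37 in the comparisons with LIPA. Nlrc4 (ENSMUSG00000039193, chromosome 17, 74425438 to 74459142), the sensor that works with NAIP proteins, had means of 0.367 ± 0.143 and 0.543 ± 0.165 CPM, and the difference did not pass (0.55 ± 0.32, adjusted p = 0.218, edgeR). Aim2 (ENSMUSG00000037860, chromosome 1, 173350879 to 173466040), which binds DNA in the cytosol, had means of 1.06 ± 0.25 and 1.29 ± 0.239 CPM and did not pass either (0.28 ± 0.23, adjusted p = 0.384, edgeR).

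Il1b (ENSMUSG00000027398, chromosome 2, 129364570 to 129371139) lay at 0.693, 1.75 and 3.29 CPM (lowest, median, highest) in CON-GFP, and in FPC-GFP at 1.90, 4.34 and 9.91 CPM. In 4 of 6 FPC-GFP livers it stood above all CON-GFP livers, and the highest value was that of FPC-GFP 19. Its mean rose from 1.95 ± 0.992 to 4.8 ± 2.80 CPM, which gave a log2 difference of 1.28 ± 0.39 (adjusted p = 0.0275, edgeR). Without FPC-GFP 19 the log2 fold change was 0.94 (adjusted p = 0.0785), and the call was also lost without CON-GFP 1 (0.050) or CON-GFP 2 (0.0559) and with all 18 livers in 1 fit (0.0947).

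Il18 (ENSMUSG00000039217, chromosome 9, 50554827 to 50581840) went the other way from Il1b. It lay at 9.89, 12.3 and 17.6 CPM in CON-GFP, and at 4.40, 7.09 and 9.05 in FPC-GFP, with every FPC-GFP liver below every CON-GFP liver. Its mean of 7.14 ± 1.76 CPM stood against 12.95 ± 2.68 CPM in CON-GFP, 1.82-fold lower (log2 -0.87 ± 0.18, adjusted p = 0.00424, edgeR), short of the fold limit. Il1rn (ENSMUSG00000026981, chromosome 2, 24336853 to 24351494), the antagonist, lay at 1.29, 2.11 and 2.69 CPM in CON-GFP, and at 2.92, 4.19 and 4.69 in FPC-GFP. The groups did not overlap, and the difference was 1.89-fold (log2 0.92 ± 0.20, adjusted p = 0.00468, edgeR), also short of the limit. It was called without CON-GFP 7, with library size alone and with the GC trend removed (log2 1.00 to 1.10). In all, 3 of the 10 genes had no overlap between these groups, beside 10.6% of all genes.

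The machinery between sensor and cytokine differed little between the diets. Pycard (ENSMUSG00000030793, chromosome 7, 127989708 to 127993867) had means of 1.71 ± 0.530 and 1.86 ± 0.634 CPM (CON-GFP first) (log2 0.13 ± 0.27, adjusted p = 0.757, edgeR). Casp1 (ENSMUSG00000025888, chromosome 9, 5298517 to 5307265) had means of 2.20 ± 0.618 and 2.93 ± 0.781 CPM, and its neighbour Casp4 (ENSMUSG00000033538, chromosome 9, 5308828 to 5336783) of 1.55 ± 0.573 and 1.90 ± 0.705 CPM. Gsdmd (ENSMUSG00000022575, chromosome 15, 75862327 to 75867408) was the closest to even, at 28.6 ± 4.62 and 29.1 ± 3.77 CPM (log2 0.01 ± 0.12, adjusted p = 0.955, edgeR). The 95% interval of its log2 difference ran from -0.23 to 0.25, and those of Pycard (-0.40 to 0.65), Casp1 (-0.03 to 0.86) and Casp4 (-0.32 to 0.90) left room for larger differences.

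**Figure D2:**
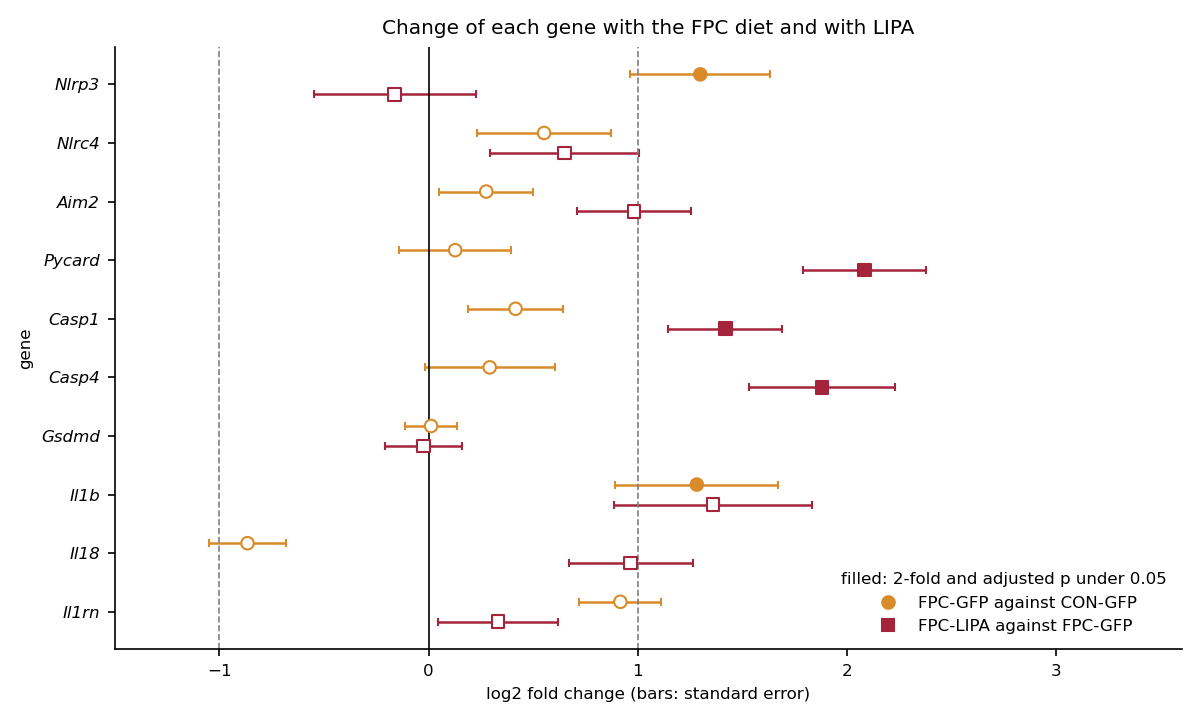
Log2 fold change of each gene (horizontal axis, bars SE) for FPC-GFP against CON-GFP (circles) and FPC-LIPA against FPC-GFP (squares), with filled symbols for genes called and dashed lines at 2-fold. Nlrp3 and Il1b are filled for the diet, Pycard, Casp1 and Casp4 for LIPA, and the 2 sets share no gene. The sets follow from the limits, as Il1b with LIPA is beyond 2-fold and just missed the p limit. The 2 changes of a gene were not tested against each other.

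FPC-LIPA was compared with FPC-GFP to see what LAL overexpression added on the FPC diet. Here the adaptor and both caspases rose, at 4.24-fold for Pycard, 3.68-fold for Casp4 and 2.67-fold for Casp1, and Nlrp3 and Gsdmd did not pass. These 3 of 10 genes were called where 11.4% of the 14620 genes tested were called and 10.3% were called higher. With the p limit alone 5 of 10 passed, beside 21.2% of all genes. The median log2 fold change was 0.97 over the 10 genes and 0.04 over all genes tested. The FPC-GFP livers serve in both comparisons, so noise in them enters the 2 with opposite signs.

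Pycard lay at 1.06, 1.69 and 2.77 CPM (lowest, median, highest) in FPC-GFP and at 4.73, 7.85 and 12.6 CPM in FPC-LIPA. Every FPC-LIPA liver stood above every FPC-GFP liver. The mean rose from 1.86 ± 0.634 to 7.92 ± 2.91 CPM, which gave a log2 difference of 2.08 ± 0.29 (adjusted p = 0.00790, edgeR). Casp4 lay at 0.810, 1.89 and 2.85 CPM in FPC-GFP and at 3.47, 6.11 and 13.4 CPM in FPC-LIPA, again without overlap. Its mean rose from 1.90 ± 0.705 to 7.01 ± 3.53 CPM (log2 1.88 ± 0.35, adjusted p = 0.0110, edgeR). Casp1 lay at 1.87, 3.05 and 3.78 CPM in FPC-GFP and at 4.92, 7.18 and 13.2 CPM in FPC-LIPA. It too had no overlap, and its mean rose from 2.93 ± 0.781 to 7.89 ± 3.11 CPM (log2 1.42 ± 0.27, adjusted p = 0.0111, edgeR). These 3 of 10 genes stood wholly above the FPC-GFP range, beside 3.81% of all genes tested. The call of Casp1 was lost when each library's trend on GC content was removed (log2 0.93) and in the libraries with sample sheet numbers 55 to 68 (adjusted p = 0.0595).

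The cytokines were spread more widely in FPC-LIPA. Il1b lay at 3.56, 10.3 and 29.1 CPM there, and 3 of 6 livers stood above all FPC-GFP livers. Its mean of 12.4 ± 9.37 CPM was 2.57-fold that of FPC-GFP, and the adjusted p of 0.0523 (edgeR) just missed the limit (log2 1.36 ± 0.47). Il1b was called without FPC-LIPA 31, its lowest liver, without FPC-GFP 19, with DESeq2's Wald test, with all 18 livers in 1 fit and with a filter of 1 CPM in 6 libraries. Its log2 fold change ran from 0.92 to 1.70 with each liver left out. Over all alternatives it was as low as 0.76, and the adjusted p reached 0.227 (edgeR). Il18 lay at 7.25, 13.5 and 21.7 CPM in FPC-LIPA, with 3 livers inside the FPC-GFP range and 3 above it. Its mean of 13.9 ± 6.44 CPM was close to that of CON-GFP (12.95 ± 2.68), but no FPC-LIPA liver lay in the CON-GFP range of 9.89 to 17.6 CPM. FPC-LIPA 31, 33 and 34 (7.25 to 8.64 CPM) lay below that range, and FPC-LIPA 36, 37 and 39 (18.4 to 21.7 CPM) above it. Against FPC-GFP the Il18 mean was 1.95-fold higher (log2 0.96 ± 0.30, adjusted p = 0.0353, edgeR), under the fold limit. Il18 was called without FPC-GFP 16 (log2 1.04) or any of FPC-LIPA 31, 33 and 34 (1.07 to 1.08). Il1rn had a mean of 5.0 ± 2.39 CPM and did not pass (log2 0.33 ± 0.29, adjusted p = 0.397, edgeR).

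Among the sensors Aim2 came nearest to a call. It lay at 1.06, 1.26 and 1.74 CPM in FPC-GFP and at 1.27, 2.34 and 3.88 CPM in FPC-LIPA, where 5 of 6 livers stood above the FPC-GFP range. The difference was 1.97-fold (log2 0.98 ± 0.27, adjusted p = 0.0265, edgeR). It was called without FPC-GFP 19 (log2 1.08), FPC-LIPA 36 (1.02), FPC-LIPA 37 (1.10) or FPC-LIPA 39 (1.01), with upper-quartile factors (1.03), with DESeq2's Wald test (1.00) and with a filter of 1 CPM in 6 libraries (1.01). Nlrp3 had a mean of 1.15 ± 0.611 CPM in FPC-LIPA against 1.29 ± 0.275 in FPC-GFP (log2 -0.16 ± 0.39, adjusted p = 0.774, edgeR), with a 95% interval from -0.92 to 0.60. Its sign turned without FPC-LIPA 36, the liver with 0.244 CPM (log2 0.05). Nlrc4 had a mean of 0.868 ± 0.329 CPM (log2 0.65 ± 0.36, adjusted p = 0.183, edgeR). Gsdmd had a mean of 28.5 ± 6.78 CPM (log2 -0.03 ± 0.19, adjusted p = 0.928, edgeR, 95% interval -0.39 to 0.34), so its mRNA differed by less than the spread between mice. The mRNA of Casp1 and Casp4, which encode proteases that cleave gasdermin D, rose. The sign of Gsdmd turned with the scaling and with several other choices.

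The FPC-LIPA livers did not form 1 level. Cytosolic ribosomal protein genes took 6.48%, 8.09% and 8.15% of counts in FPC-LIPA 36, 37 and 39, against 2.16% to 2.95% in FPC-LIPA 31, 33 and 34, 1.44% to 1.80% in FPC-GFP and 1.75% to 2.54% in CON-GFP. Pycard ran from 8.92 to 12.6 CPM in FPC-LIPA 36, 37 and 39 and from 4.73 to 6.79 CPM in the other 3. Casp1 (7.52 to 13.2 against 4.92 to 6.84 CPM) and Casp4 (6.73 to 13.4 against 3.47 to 5.49 CPM) followed the same order. Il18 parted furthest, at 18.4 to 21.7 against 7.25 to 8.64 CPM, so that the other 3 livers lay within the FPC-GFP range of 4.40 to 9.05 CPM. Aim2 had the reverse order, at 1.27 to 2.22 CPM in FPC-LIPA 36, 37 and 39 and 2.46 to 3.88 CPM in the others. The other 5 genes overlapped between the 3 livers and the other 3. These sets of livers were named from the ribosomal share after it was seen and are no groups of the study, so they were not tested against each other.

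With FPC-LIPA 36, 37 and 39 left out, Pycard still rose (log2 1.60, adjusted p = 0.0269, edgeR) and Aim2 was called (1.29, 0.0333), where 0.761% of all genes tested were called. Casp4 (1.28, adjusted p = 0.0734) and Casp1 (0.95, 0.0762) did not pass in this fit of 9 livers, and Il18 was at 0.20. That the remaining FPC-LIPA livers stood above every FPC-GFP liver in Pycard, Casp1 and Casp4 follows from the lack of overlap given above and is no separate result. The part of the ribosomal share in these differences was not tested.

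**Figure D3:**
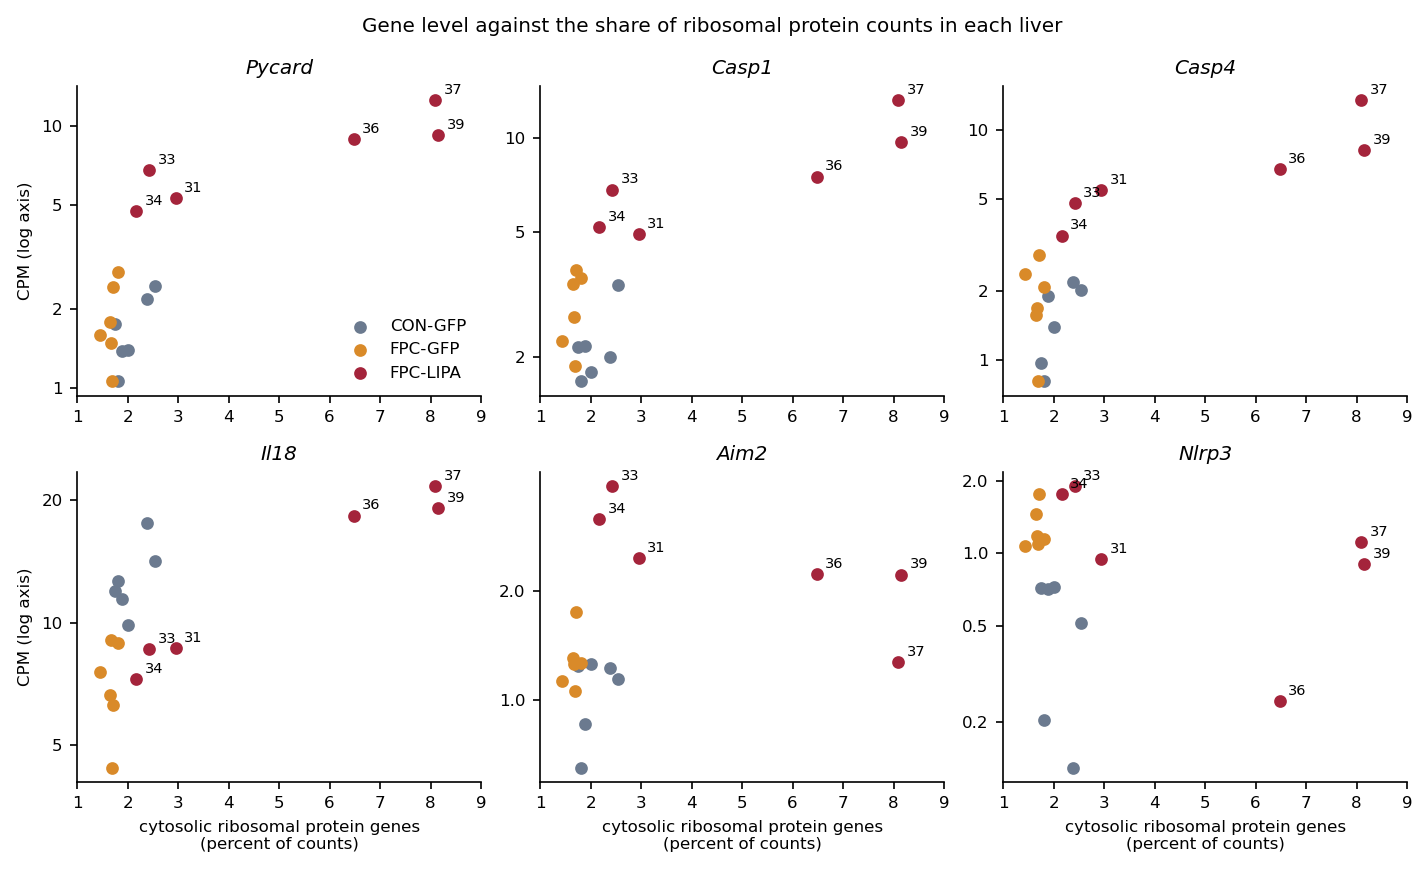
Level in CPM (log axis) of 6 genes against the percent of counts on cytosolic ribosomal protein genes in each of the 18 livers, with FPC-LIPA mice numbered. FPC-LIPA 36, 37 and 39, above 6% on the horizontal axis, are the highest in Pycard, Casp1, Casp4 and Il18, while FPC-LIPA 31, 33 and 34 are the highest of that group in Aim2.

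FPC-LIPA against CON-GFP differs in both diet and virus. Here 7 of the 10 genes rose, where 15.1% of 14433 genes were called and 11.8% were called higher. In order of fold change they were Il1b (6.14-fold, log2 2.62 ± 0.49, adjusted p = 0.00188), Pycard (4.51-fold), Casp4 (4.39-fold), Casp1 (3.48-fold), Aim2 (2.36-fold), Il1rn (2.35-fold, adjusted p = 0.0120) and Nlrc4 (2.24-fold, adjusted p = 0.0380), all by edgeR. In the first 5 of these every FPC-LIPA liver stood above every CON-GFP liver, beside 6.26% of all genes. Nlrp3 was 2.20-fold higher without a call (adjusted p = 0.103, edgeR). It was called without FPC-LIPA 36 and with all 18 livers in 1 fit. Il18 (log2 0.06 ± 0.27) and Gsdmd (-0.03 ± 0.20) did not pass, and the sign of each turned under other choices. The small difference of Il18 is one of means, as every FPC-LIPA liver lay below or above the CON-GFP range. The call of Nlrc4 was lost under 11 of the alternatives, and that of Il1rn without FPC-LIPA 34 and in the libraries with sample sheet numbers 55 to 68.

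The balance of agonist and antagonist was taken as the log2 ratio of Il1b to Il1rn in each liver. Its mean was -0.21 ± 0.65 in CON-GFP, 0.10 ± 0.69 in FPC-GFP and 1.09 ± 1.18 in FPC-LIPA (SD, n = 6 each). The ratio is of CPM, not per length, so it is read between groups and not as the gene with more transcripts. In 5 of 6 FPC-LIPA livers the ratio was above 0, and only CON-GFP 1 lay lower than FPC-LIPA 31. The diet difference was 0.31 (exact two-sided permutation test over 924 regroupings, p = 0.437, adjusted over the 3 comparisons 0.437). The LIPA difference on the FPC diet was 0.99 (exact permutation p = 0.113, adjusted 0.169). FPC-LIPA against CON-GFP differed by 1.31 (exact permutation p = 0.0411, adjusted 0.123). None passed after adjustment. Without FPC-LIPA 31 the last 2 were 1.39 (adjusted p = 0.0260, exact) and 1.70 (adjusted p = 0.00649, exact), and without FPC-LIPA 36, 37 and 39 they were 0.46 and 0.78 (adjusted p = 0.524 for both, exact).

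**Figure D4:**
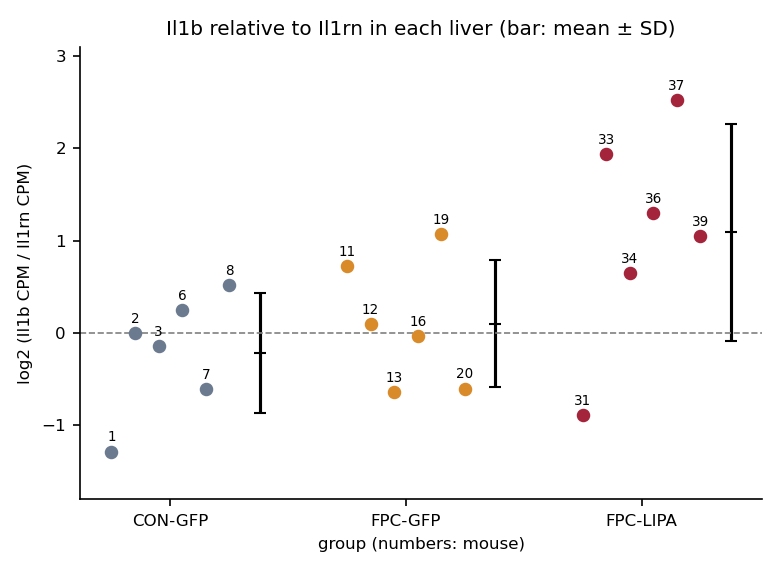
Log2 ratio of Il1b to Il1rn CPM in each liver (points, numbered by mouse) with mean ± SD per group (bars). The FPC-LIPA mean of 1.09 rests on 5 livers above 0, and FPC-LIPA 31 lies below 0.

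Other genes of the pathway were read from 6 lists with 75 genes. With the diet 61 were tested, of which 6 rose and 3 fell, beside 4.76% of all genes called higher and 2.44% called lower. With LIPA 63 were tested, of which 6 rose and none fell, beside 10.3% and 1.11%. Between FPC-LIPA and CON-GFP 18 of 62 tested were called, beside 15.1% of all genes. The median log2 fold change of those tested was 0.20 with the diet and 0.12 with LIPA, beside 0.01 and 0.04 over all genes.

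Of 18 tested sensors and cofactors 1 rose with the diet and 1 with LIPA. Mefv, which encodes pyrin, rose from 0.424 to 1.04 CPM with the diet (log2 1.28 ± 0.44, adjusted p = 0.0443, edgeR), a call lost with any of 7 of the 12 livers left out. Brcc3, which encodes a deubiquitinase of NLRP3, rose from 18.0 to 40.3 CPM with LIPA (log2 1.16 ± 0.34, adjusted p = 0.0301, edgeR). The call was lost with any of the 6 FPC-GFP livers or of FPC-LIPA 36, 37 and 39 left out, and the log2 fold change was 0.15 with the GC trend removed and 0.11 without those 3 FPC-LIPA livers. Txnip, with the highest mean CPM of the list, did not pass in either (log2 0.11 and 0.22). Nlrp6, a sensor chosen after its values were seen, was at 41.4 CPM per kilobase in CON-GFP, where Aim2 was at 0.304, and on the scale of CPM it was at 210 ± 29 CPM in CON-GFP, against 113 ± 30.4 in FPC-GFP. Its groups did not overlap, and the difference of log2 -0.90 ± 0.17 (adjusted p = 0.00253, edgeR) was under the fold limit. The Naip genes, partners of Nlrc4, are close paralogs whose reads are uncertain. Naip2 and Naip5 were 1.64-fold and 1.48-fold higher with the diet at adjusted p of 0.00958 and 0.0391 (edgeR), under the fold limit.

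Of 9 genes of inflammatory caspases and lytic death 2 rose with the diet. Mlkl, the executor of necroptosis, rose from 3.65 ± 0.787 to 8.13 ± 1.10 CPM (log2 1.14 ± 0.16, adjusted p = 0.000349, edgeR), and Ripk3, the kinase that activates it, from 0.854 ± 0.337 to 1.88 ± 0.285 CPM (log2 1.11 ± 0.25, adjusted p = 0.00618). Neither group pair overlapped. With LIPA 1 of the 9 rose, Casp12, from 1.963 ± 0.263 to 4.42 ± 3.18 CPM (log2 1.15 ± 0.36, adjusted p = 0.0377, edgeR). Its call too was lost with any of the 6 FPC-GFP livers or of FPC-LIPA 36, 37 and 39 left out, and its log2 fold change was 0.69 without FPC-LIPA 37, 0.25 with the GC trend removed and 0.28 without those 3 FPC-LIPA livers. Ninj1, which encodes the protein that ruptures the membrane after pores form and had the highest mean CPM of the list, was at 158 ± 12.0, 119 ± 16.0 and 104 ± 18.6 CPM in CON-GFP, FPC-GFP and FPC-LIPA, with a diet difference of log2 -0.42 ± 0.11 (adjusted p = 0.0134, edgeR).

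Of the 7 other ligands 2 could be tested, Il1a and Il33, and neither was called with the diet or with LIPA. Il1a, which acts on the same receptor as Il1b, was at 3.31 ± 1.17, 5.30 ± 1.44 and 8.56 ± 2.76 CPM in CON-GFP, FPC-GFP and FPC-LIPA. Among the receptors Il1r1, the signalling receptor of IL-1, fell with the diet from 100.5 ± 77.2 to 38.01 ± 21.3 CPM (log2 -1.42 ± 0.49, adjusted p = 0.0454, edgeR). The CON-GFP livers were wide, from 30.4 to 192 CPM, and 3 of 6 FPC-GFP livers stood below all of them. The call was lost with any of 8 of the 12 livers left out. Its partner chain Il1rap was at 197.9 ± 25.1 and 124 ± 19.2 CPM without overlap (log2 -0.69 ± 0.13, adjusted p = 0.00207, edgeR), under the fold limit. With LIPA 1 of 6 tested receptors rose, Il18r1, which lies outside the naming rule at 0.238 and 0.680 CPM (log2 1.45 ± 0.48, adjusted p = 0.0445, edgeR), a call lost with any of 10 of the 12 livers left out.

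Of 17 genes of IL-1 receptor signalling Irak3, an inhibitory member of the IRAK family, rose with the diet (1.13 to 2.33 CPM, log2 1.04 ± 0.30, adjusted p = 0.0210, edgeR), and none was called with LIPA. The call of Irak3 was lost without CON-GFP 1, CON-GFP 6 or FPC-GFP 19 (log2 0.95, 0.97 and 0.81). Ikbkg, with the highest mean CPM, did not pass (log2 0.16 and -0.24). Of the genes that respond to IL-1, Ccl2, a monocyte chemokine, rose with the diet from 0.841 ± 0.363 to 3.63 ± 1.35 CPM (log2 2.07 ± 0.32, adjusted p = 0.000657, edgeR), and Icam1, an adhesion molecule, rose 2.35-fold (adjusted p = 0.000902). The serum amyloid genes Saa1 (326 to 81.1 CPM, adjusted p = 0.0162) and Saa2 (147 to 36.9 CPM, adjusted p = 0.0368), near-identical acute-phase genes whose reads are uncertain, fell with the diet. The size of both falls rested on CON-GFP 3, at 1107 CPM in Saa1 and 624.97 CPM in Saa2. Without it Saa1 was 2.11-fold lower (adjusted p = 0.0327, edgeR), in place of 4.04-fold, and Saa2 was 1.41-fold lower and lost its call (adjusted p = 0.156), in place of 4.01-fold. The call of Saa2 was also lost with any of 5 FPC-GFP livers left out. With LIPA Saa1 (to 264 CPM, log2 1.71 ± 0.35, adjusted p = 0.0127, edgeR), Saa2 (to 79.1 CPM, 1.10 ± 0.31, 0.0269) and Saa3 rose, and the call of Saa2 was lost with any of 7 of the 12 livers left out. Saa3 had no overlap and the largest change of the 75, from 12.5 ± 4.05 to 97.9 ± 78.9 CPM (log2 2.98 ± 0.54, adjusted p = 0.0107, edgeR). Hp, which encodes haptoglobin and had the highest mean CPM, did not pass in either (log2 -0.34 and -0.02). The 6 calls with LIPA were reduced to 0 in the fit without FPC-LIPA 36, 37 and 39, where 0.761% of all genes were called, and in the libraries with sample sheet numbers 55 to 68, where 0.651% were. Without the 3 livers Saa1, Saa2 and Saa3 had log2 fold changes of 0.79, 0.60 and 1.14.

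**Figure D5:**
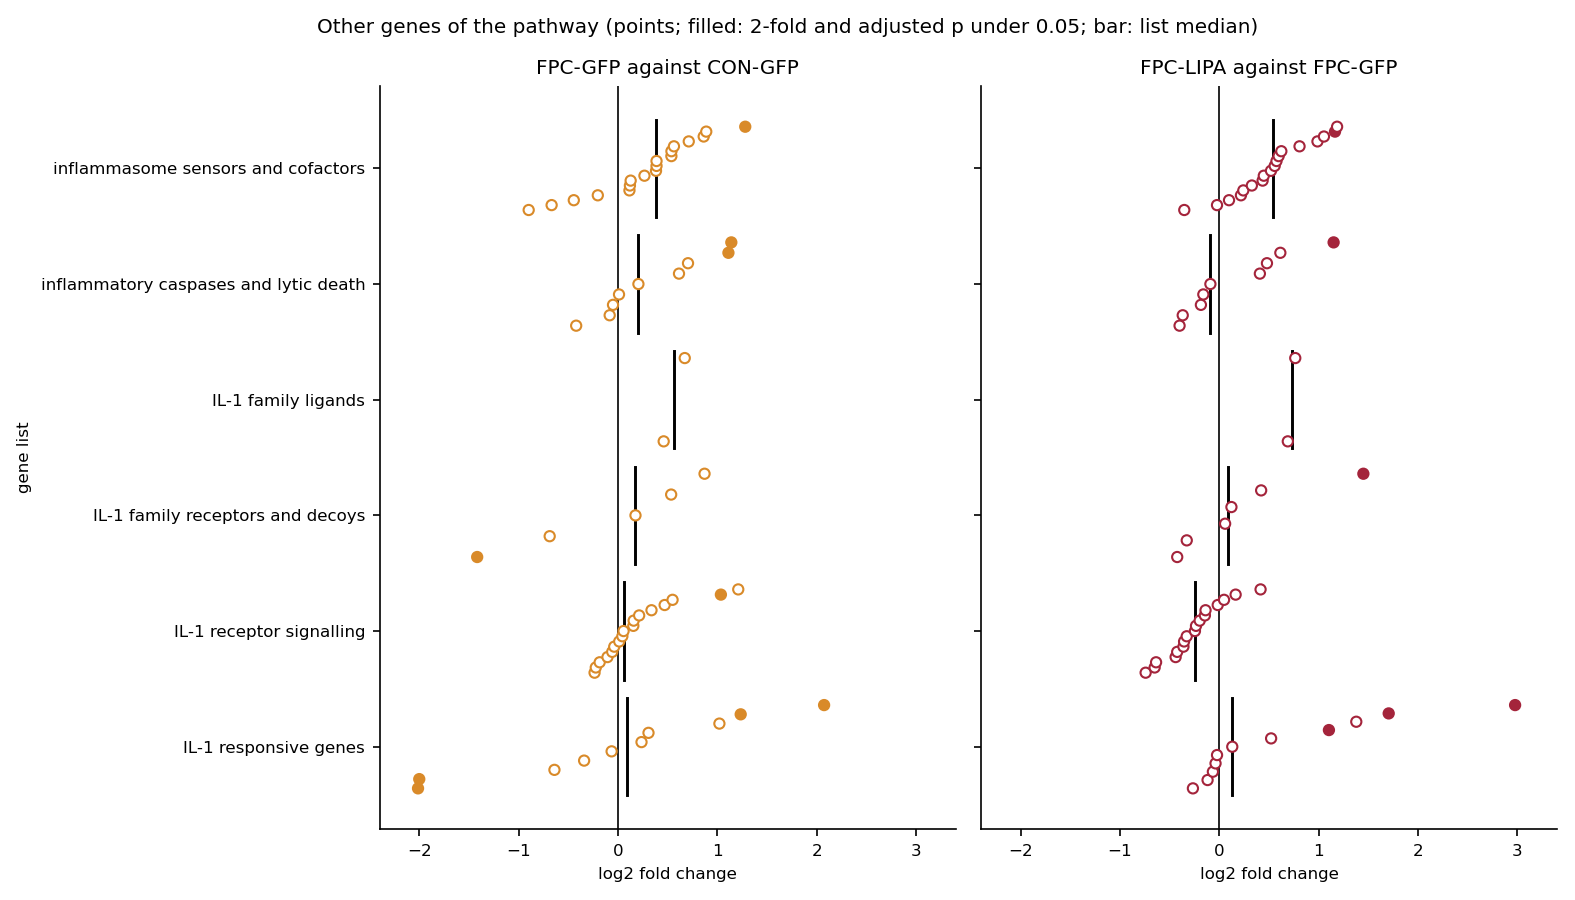
Log2 fold change of the tested genes of 6 pathway lists (points, filled where called, vertical bar at the list median) for FPC-GFP against CON-GFP (left) and FPC-LIPA against FPC-GFP (right). The serum amyloid genes at the lower left, near -2, are on the other side of 0 with LIPA, where Saa3 reaches 2.98.

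The mean summed levels of myeloid cell markers were higher on the FPC diet and higher again with LIPA, while those of B and T cell markers were higher with LIPA and no higher with the diet. Of all genes tested 4.76% were called higher with the diet and 10.3% with LIPA, and the counts of markers that rose stand beside these shares. The 8 Kupffer cell markers summed to 122 to 261 CPM in CON-GFP, 366 to 625.3 in FPC-GFP and 467 to 985 in FPC-LIPA, and 8 of 8 rose with the diet and 1 of 8 with LIPA. The 11 markers of monocytes and monocyte-derived macrophages summed to 80.2 to 134, 160 to 423 and 489 to 1015 CPM, and 7 rose with the diet and 6 with LIPA. The 10 neutrophil markers summed to 2.12 to 4.81, 3.09 to 6.28 and 8.58 to 22.3 CPM. Of these 0 of 3 tested rose with the diet and 3 of 4 with LIPA, and Camp, Ltf, Mmp8 and Ngp were at 0 in at least 1 liver of every group. Ptprc, which encodes the leukocyte antigen CD45, lay at 4.08 to 10.02, 6.05 to 12.8 and 14.5 to 76.6 CPM, with the highest value in FPC-LIPA 37. Ptprc rose with LIPA (log2 1.67 ± 0.38, adjusted p = 0.0159, edgeR) and was not called with the diet (0.50 ± 0.23, adjusted p = 0.118). The mean sums of B cell markers were 15.0, 14.1 and 26.3 CPM in CON-GFP, FPC-GFP and FPC-LIPA, those of T cells 3.94, 2.72 and 5.79 CPM, and those of NK cells 1.17, 1.25 and 4.22 CPM. The B cell sum was mostly Ighm (10.6 and 8.27 CPM in CON-GFP and FPC-GFP), and Cd4 (2.13 and 0.523 CPM) was the largest part of the T cell sum in CON-GFP. With the diet none of these markers rose, and no NK cell marker could be tested. Of 5 tested B cell markers 3 were higher without a call, and of 4 tested T cell markers 2 were higher and 1 fell. With LIPA 3 of 6 tested B cell, 1 of 5 T cell and 1 of 2 NK cell markers rose. Markers of red blood cells summed to means of 433, 345 and 1441 CPM (2 of 5 rose with LIPA), of stellate cells to 224, 256 and 486 CPM (1 of 6) and of endothelial cells to 170, 213 and 263 CPM (0 of 6).

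Genes were also set against 3 leukocyte genes in the same liver, Ptprc, Adgre1 (which encodes the macrophage antigen F4/80) and Lyz2 (which encodes the lysozyme of myeloid cells). For Casp1, Il1b, Nlrp3, Pycard, Casp4 and Il1rn the order of the groups depended on which was used. The mean ratio of Casp1 to Ptprc was 0.364 ± 0.0744 in CON-GFP, 0.334 ± 0.0591 in FPC-GFP and 0.350 ± 0.172 in FPC-LIPA (SD, n = 6), but to Adgre1 it was 0.364, 0.169 and 0.168, and to Lyz2 0.0448, 0.0235 and 0.0156. Il1b to Ptprc was 0.315 ± 0.14, 0.540 ± 0.255 and 0.456 ± 0.197, whereas Il1b to Adgre1 was 0.309, 0.255 and 0.204, and to Lyz2 0.0377, 0.0351 and 0.0251. Nlrp3 to Ptprc was 0.0881 ± 0.0561, 0.148 ± 0.0189 and 0.0537 ± 0.0338, and to Adgre1 0.0823, 0.0731 and 0.0248. Pycard to Ptprc was 0.275 ± 0.0249, 0.211 ± 0.0625 and 0.355 ± 0.170, and to Lyz2 0.0348, 0.0146 and 0.0157. Gsdmd, Il18, Aim2 and Nlrc4 had the same falling order against all 3. To Ptprc, Gsdmd was at 5.15 ± 2.12, 3.46 ± 0.939 and 1.45 ± 0.670, and Il18 at 2.20 ± 0.596, 0.843 ± 0.274 and 0.636 ± 0.403. These ratios are descriptions without a test, and the part of immune cell number in the changes above was not tested.

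The genes most like Il1b, Casp1 and Il18 were found among 12738 genes as those with the smallest root mean square (RMS) difference of standardised log2 CPM over the 18 livers. For Il1b these were Mylip, Vsig4, Adgre1, Ptgs1 and Cfp (RMS 0.356 to 0.393), of which Vsig4 and Adgre1 are in the Kupffer cell list. For Casp1 they were Gngt2, Klra2, Clec4n, Tyrobp and Wfdc17 (0.236 to 0.264), and Pycard came next at rank 6 and Casp4 at rank 49. Tyrobp encodes the signalling adaptor DAP12 of myeloid and NK cells. For Il18 they were Sult1b1, Tpd52l1, Car8, Cyb5a and Mrpl27 (0.25 to 0.329), none of which is in an immune list, and Casp1 stood at rank 3649. Sult1b1, which encodes a sulfotransferase, went from 51.6 through 13.0 to 54.0 mean CPM in CON-GFP, FPC-GFP and FPC-LIPA. Gsdmd was at rank 8846 for Il1b and 8003 for Casp1. The 18 livers differ in group, depth and ribosomal share, which genes can follow in common, so likeness over them is a description.

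Some of the 10 genes share ground with others, and the strand setting of the counts is not given in the sources used here. Gm4708, a processed pseudogene, lies inside Nlrc4 on its strand and held 1152 counts over 18 livers where Nlrc4 held 297. Cadm3 (3014 counts) overlaps Aim2 (879) on the opposite strand, Bco2 (11189) and Tex12 (395) overlap Il18 (5400), and the antisense gene Il1bos (45) overlaps Il1b (3124). Reads shared with genes on the opposite strand cannot be told apart without strand, and for Gm4708 strand would not part them. Mouse Lipa was at 243 ± 33.9, 336 ± 59.3 and 300 ± 44.8 CPM in CON-GFP, FPC-GFP and FPC-LIPA, and since the virus carried the human gene this is no check of the labels.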

How the data were processed

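RNA-Seq of 18 livers, 1 library per mouse and 6 per group, was read from raw counts per gene that the authors deposited, without normalization. The authors trimmed reads with Trimmomatic, mapped them to GRCm38 with Hisat2 2.1.0 and counted them with Feature Counts. Stranded and unstranded kits are both named, and annotation version, strand setting and handling of reads with several matches are not given in the sources used here. Of 23 columns, 5 belonged to other samples and were not used. Groups followed the labels.

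Each pair of groups was fitted alone (12 libraries) with filterByExpr, TMM and the quasi-likelihood test of edgeR 4.0.16 in R 4.3.3. Genes were called at 2-fold and adjusted p under 0.05. CPM were scaled by TMM over 18 libraries, and log2 CPM used a prior count of 2. Exon lengths came from GENCODE (GRCm38, 55227 of 55487 genes matched). The Il1b to Il1rn ratio was tested by exact permutation (smallest possible p 0.00216). P-values measure spread between mice, since replicates differed well beyond counting noise (chi-square per degree of freedom 15.4 to 591).

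The 10 genes, the lists and the tests were chosen with earlier results of these data known. Named were the 10 genes, of each pathway list at most 4 called genes per comparison with at least 1 CPM in a group and the gene with the highest mean CPM, and the 5 genes most like Il1b, Casp1 and Il18. Alternatives were DESeq2 1.42.0 size factors and Wald test, upper-quartile or library size scaling, other filters and thresholds, 1 fit of all 18 libraries, removal of length or GC trends, sample sheet numbers 55 to 68, and each library left out. Sample sheet numbers were read from the sample labels, which do not say what they stand for. Outside 55 to 68 were CON-GFP 1 (73), CON-GFP 2 (80), FPC-GFP 20 (79) and FPC-LIPA 37 (228), the last with the fewest counts (16632146). Leaving out FPC-LIPA 36, 37 and 39 was chosen after seeing the data. The fit was tested on simulated data holding 200 genes with a 4-fold change, and recovered 200 for FPC-GFP against CON-GFP (14156 genes, 1 false call) and 198 for FPC-LIPA against FPC-GFP (14382 genes, 8 false calls). The changed genes were drawn only from genes with higher mean counts. Simulated counts were drawn independently around 1 mean per gene, with as many genes raised as lowered. They held no split by ribosomal share as in FPC-LIPA, and in the real LIPA comparison 1508 genes were called higher and 163 lower. False calls under such conditions were not tested. Recovery at the low counts of genes such as Nlrp3 and Nlrc4, or of changes under 4-fold, was not tested.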

Additional observations from a re-analysis of the deposited data

Results flagged for a closer look

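Of 30 groups of 6 livers (10 genes in 3 groups), 2 held a liver far from the others by Dixon's criterion, where chance alone gives about 1 in 20 groups. Aim2 stood at 1.74 CPM in FPC-GFP 19, with the next FPC-GFP liver at 1.31 CPM. Casp1 stood at 3.39 CPM in CON-GFP 6, with the next CON-GFP liver at 2.16 CPM. Without FPC-GFP 19 Aim2 was called in FPC-LIPA against FPC-GFP (log2 1.08, adjusted p = 0.0369, edgeR) and not with the diet, and without CON-GFP 6 no call of Casp1 changed.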

How the results depend on the processing

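Of 676 alternative values of the 10 genes in the 3 comparisons, 598 kept their direction and their side of the limits, 23 lost a call, 23 gained one and 32 changed sign. Numbers in brackets in this paragraph are calls over all genes in the same fit. With the diet (1030 in the main fit), the 2 calls among the 10 genes became 0 with all 18 livers in 1 fit (817). They became 1 in sample sheet numbers 55 to 68 (767), 3 with library size alone (1279) or the GC trend removed (971), and 4 with no fold minimum (3410). At an adjusted p under 0.01 there were 0, and 1 to 3 with each liver left out. The 9 calls of the pathway lists became 19 with no fold minimum (3410), 4 at 0.01 and 5 to 10 with each liver left out. The 5 were without FPC-GFP 19 (857). With LIPA (1671 in the main fit), the 3 calls among the 10 genes became 5 with DESeq2's Wald test (1960), with a filter of 1 CPM in 6 libraries (1500) and with no fold minimum (3102). They became 4 with upper-quartile factors (1706) and with all 18 livers in 1 fit (1899). Only 2 were left with the GC trend removed (1308), in sample sheet numbers 55 to 68 (96) and without FPC-LIPA 36, 37 and 39 (116). At 0.01 there was 1, and 3 to 5 with each liver left out (5 without FPC-GFP 19 or FPC-LIPA 31). The 6 calls of the lists became 2 with library size alone (1016). They became 0 in sample sheet numbers 55 to 68 (96), without FPC-LIPA 36, 37 and 39 (116) and at 0.01. With each liver left out they were 2 to 8 (2 with any of FPC-GFP 11, FPC-GFP 20, FPC-LIPA 36 and FPC-LIPA 37 left out). For FPC-LIPA against CON-GFP (2176 in the main fit), the 18 calls of the lists became 11 in sample sheet numbers 55 to 68 (1107) and at 0.01, and 14 to 19 with each liver left out. The Il1b to Il1rn difference ran from 0.71 to 1.39 (FPC-LIPA against FPC-GFP) and from 1.02 to 1.70 (against CON-GFP) with each liver left out, highest without FPC-LIPA 31, and was 0.46 and 0.78 without FPC-LIPA 36, 37 and 39 and 0.56 and 0.80 in sample sheet numbers 55 to 68. The cause of these changes was not tested, apart from the limits themselves and smaller fits.

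Signs changed mainly for Gsdmd, whose log2 fold changes lay near 0. With the diet they were -0.00202 with DESeq2 size factors, -0.00344 with the Wald test, -0.10 with the GC trend removed, -0.13 in sample sheet numbers 55 to 68 and -0.0519 to 0.0760 with each liver left out. With LIPA they were 0.0230 with upper-quartile factors, 0.000311 with the 1 CPM filter, 0.19 with the GC trend removed, 0.15 in sample sheet numbers 55 to 68, 0.16 without FPC-LIPA 36, 37 and 39 and -0.114 to 0.0843 with each liver left out. Against CON-GFP they were 0.0539 with upper-quartile factors, 0.0864 with library size alone, 0.00658 with the 1 CPM filter, 0.0668 with the GC trend removed, 0.00791 in sample sheet numbers 55 to 68, 0.17 without FPC-LIPA 36, 37 and 39 and -0.138 to 0.0803 with each liver left out. Il18 against CON-GFP was at -0.34 with the length trend removed, -0.0608 with the GC trend removed, -0.66 without FPC-LIPA 36, 37 and 39 and -0.10 to 0.18 with each liver left out. Nlrp3 with LIPA lay between -0.38 (FPC-LIPA 33) and 0.0506 (FPC-LIPA 36) as each liver was left out, and was at 0.26 without FPC-LIPA 36, 37 and 39, and Pycard with the diet ran from -0.0261 (without FPC-GFP 16) to 0.26 with each liver left out. Library size alone moved the median log2 fold change of all genes to 0.21, -0.09 and 0.12 in the 3 comparisons, from 0.01, 0.04 and 0.04. No paired analysis was possible because the groups share no mouse numbers.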
